A study of Homo sapiens with 105 samples.

Results

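Of the 26330 gene symbols in each of 5 deposited RNA-seq tables, 47 belong to the matrix metalloproteinases (MMP followed by a number), the ADAMTS metalloproteinases (ADAMTS followed by a number) or the tissue inhibitors of metalloproteinases (TIMP followed by a number), and these 47 genes are described here. They were taken by symbol alone, so ADAMTS-like and ADAM genes are not among them, and they comprise 24 MMP, 19 ADAMTS and 4 TIMP genes. HGrC1, a line of immortalised human granulosa cells, carried 1 of 3 transduced constructs: no insert (EV), the normal FOXL2 gene (WT) or FOXL2 with the C134W mutation (C134W). Each was taken unstimulated and after TGF-beta (labelled TGF). KGN, a line from a human granulosa tumour, is heterozygous for C134W and was likewise taken without and with TGF. Cells of both lines were grown in Ham medium with 10% fetal calf serum, and neither dose nor duration of the TGF stimulus is given in these labels. The labels list 3 libraries in each of the 6 HGrC1 groups, 4 of KGN and 5 of KGN with TGF, 27 in all. Nothing there says that replicate libraries were cultured apart, so each p-value below measures only the spread between libraries, which may be technical. In such bulk RNA, fewer cells of a type and less RNA per cell cannot be told apart. FOXL2 was added to HGrC1 by transduction, and KGN is a single tumour line with no wild-type counterpart, so KGN gives a TGF comparison only.

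Matrix metalloproteinases are zinc proteases that are made as inactive precursors and cut collagens, gelatin, laminin and other matrix and cell-surface proteins. Most are secreted, and the membrane-type members stay on the cell surface, where MMP14 activates the gelatinase precursor proMMP2 in a complex that uses TIMP2 as a bridge, although TIMP2 in excess blocks both enzymes. ADAMTS proteases are secreted and differ in substrate: some cut the proteoglycans versican and aggrecan, some trim procollagens, and others act on fibrillin microfibrils, on COMP or on von Willebrand factor. In the ovary, remodelling of follicle matrix by these proteases accompanies follicle growth and ovulation, and ADAMTS1 in granulosa cells is known for its role in ovulation.

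Promoter sequences from RefSeq were held for 27 of the 47 genes. The 250 bases upstream of the annotated start are shown for 5 genes on which the results turn: ADAMTS7, MMP11 and MMP15, whose C134W minus WT difference was larger with TGF by the z test described below (for MMP11 it did not pass in limma), ADAMTS12, whose difference was negative with TGF, and MMP14, which rose with TGF in each HGrC1 line. Capitals mark matches, on either strand, to CAGAC (a SMAD half-site), TGTTTA (a forkhead core) or TGANTCA (an AP-1 site, N being any base). Each is written 5′ to 3′ on the gene's own strand.
ADAMTS7: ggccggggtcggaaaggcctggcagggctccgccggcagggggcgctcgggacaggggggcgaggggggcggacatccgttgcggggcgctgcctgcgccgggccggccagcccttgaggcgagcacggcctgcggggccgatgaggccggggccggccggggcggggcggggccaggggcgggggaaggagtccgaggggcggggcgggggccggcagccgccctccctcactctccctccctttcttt
MMP11: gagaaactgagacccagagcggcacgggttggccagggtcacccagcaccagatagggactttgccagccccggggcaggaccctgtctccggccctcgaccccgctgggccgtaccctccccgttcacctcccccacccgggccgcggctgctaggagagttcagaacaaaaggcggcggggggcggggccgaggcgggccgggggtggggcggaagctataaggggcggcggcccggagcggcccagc
MMP15: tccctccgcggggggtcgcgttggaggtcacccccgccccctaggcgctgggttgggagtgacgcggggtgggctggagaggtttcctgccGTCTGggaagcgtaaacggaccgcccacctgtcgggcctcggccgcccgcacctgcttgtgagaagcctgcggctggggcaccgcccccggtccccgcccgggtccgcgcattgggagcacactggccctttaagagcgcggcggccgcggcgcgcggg
MMP14: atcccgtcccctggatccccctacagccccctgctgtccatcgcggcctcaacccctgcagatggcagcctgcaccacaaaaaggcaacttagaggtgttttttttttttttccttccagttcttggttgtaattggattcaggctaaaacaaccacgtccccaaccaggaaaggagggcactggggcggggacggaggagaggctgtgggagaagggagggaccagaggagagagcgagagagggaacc
ADAMTS12: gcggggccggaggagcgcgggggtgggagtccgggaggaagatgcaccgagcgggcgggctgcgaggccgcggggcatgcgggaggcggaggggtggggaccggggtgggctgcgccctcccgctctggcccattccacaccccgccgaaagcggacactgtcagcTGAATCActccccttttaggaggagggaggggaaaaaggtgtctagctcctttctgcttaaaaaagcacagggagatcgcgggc
On GRCh38.p14 these lie at chr15:78811465-78811714 (minus strand), chr22:23772599-23772848 (plus), chr16:58025504-58025753 (plus), chr14:22836335-22836584 (plus) and chr5:33891991-33892240 (minus). Only MMP15 held a CAGAC match, only ADAMTS12 held a TGANTCA match, and none of the 5 held TGTTTA in this window. Over the 35116 promoter entries of the same length, 38% held CAGAC, 11% TGTTTA and 6.57% TGANTCA. Among the 28 entries of the 27 genes the numbers were 13, 3 and 4. A match is a description of letters and says nothing of binding. The windows of ADAMTS7, MMP11, MMP15 and ADAMTS12 were 80.8%, 73.2%, 74.8% and 68.4% G or C, and that of MMP14 was 56.8%. MMP2, TIMP2, ADAMTS1 and ADAMTS15 are named below without a promoter.

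Values are given in 2 forms. The authors' deposited tables give a mean of normalised reads over the libraries compared, a log2 fold change with its standard error and an adjusted p-value. These deposited fold changes are shrunken toward 0, by an amount set within each comparison's own fit. For HGrC1, whole reads per library were recovered from the digits of the deposited means, scaled to a common depth over the 18 libraries and are called normalised reads; they are not divided by gene length, so they are compared between groups and not between genes. Which recovered library carries which replicate number cannot be told. Estimated depth was 5490260 to 19648524 reads per HGrC1 library and 3592601 to 16539343 per KGN library. The KGN table was built on 11 libraries, 5 treated and 6 not, against the 9 that are labelled. FOXL2 stood at 5.42, 7.92 and 9.30 normalised reads in the 3 EV libraries, 1379, 1507 and 1604 with WT and 1279, 1357 and 1437 with C134W, and with TGF at 5.30, 7.97 and 9.74, 931, 1035 and 1085 and 666, 887 and 973, so the vector labels held; reads per gene do not tell the alleles apart. In the authors' deposited tables FOXL2 itself was lower in C134W than in WT with TGF, at -0.27 ± 0.11 (adjusted p = 0.034). Without TGF the value of -0.13 ± 0.06 did not pass (adjusted p = 0.09). FOXL2 reads were also lower with TGF than without in both FOXL2 lines. The part of FOXL2 level in the results was not tested. Of 15 granulosa markers, 9 or 10 had a mean of at least 10 in each table, among them AMH, INHBA, INHBB, GATA4, HSD17B1 and KITLG. FOXL2 was counted too, but in HGrC1 it is the transduced gene and stayed under 10 in every EV library. FSHR stayed under 1 in every table, and NR5A1 did so in the HGrC1 tables. CYP19A1 was under 1 in the HGrC1 tables without TGF, and WT1 in KGN. AMHR2 and NR5A2 were under 1 in the C134W and WT tables, and AMHR2 also in the C134W and EV table with TGF. Other cell types were looked for by lists of their markers, given as genes at a mean of at least 10 and the summed mean per table: 4 to 6 of 6 epithelial markers (13325 to 48185, keratins in every table), 3 or 4 of 7 theca and stroma markers (24003 to 119761, with INSL3 and LHCGR under 1), 2 or 3 of 6 immune markers (58.8 to 157, with CD3E and MS4A1 under 1), 0 to 2 of 5 endothelial markers (20.2 to 32.3) and 1 of 3 Sertoli markers (SOX9). Their part in the results was not tested.

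Of the 47 genes, 21 stayed under a mean of 10 normalised reads in all 5 tables. A mean of at least 10 normalised reads in any deposited table was reached by 26 of the 47 genes, 11 MMP, 12 ADAMTS and 3 TIMP, and in all 5 tables by 16: MMP2, MMP11, MMP14, MMP15, MMP16, MMP19, MMP24, TIMP1, TIMP2, ADAMTS1, ADAMTS3, ADAMTS5, ADAMTS6, ADAMTS7, ADAMTS12 and ADAMTS15. The count was 20 of 47 in each HGrC1 table with TGF, 16 in each without and 23 in KGN. Genes just below the limit were MMP9 (5.67 in the C134W and WT table with TGF), ADAMTS10 (9.34 and 9.0 in the tables without TGF) and MMP25 (9.38 in the C134W and EV table with TGF and 8.58 in KGN), and those just above were MMP17 (11.5), MMP11 (41.7 and 48.9), MMP10 (10.8) and ADAMTS13 (12.3), all from the authors' deposited tables.

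The 9 MMP genes clustered at chr11:102520508-102955732 (GRCh38.p14), which include the interstitial collagenase MMP1, the stromelysins MMP3 and MMP10 and the neutrophil collagenase MMP8, were near silent. Only MMP10 passed 10 in any authors' deposited table, at 11.7 in the C134W and WT table with TGF. Its normalised reads were 0, 0.904 and 3.10 in EV, 1.12, 2.51 and 5.30 in WT and 0, 1.48 and 2.23 in C134W, against 5.30, 6.49 and 11.4, 11.4, 11.7 and 13.3 and 6.92, 13.0 and 13.9 with TGF. MMP10 came over the limit only in tables with TGF, so its higher reads there follow in part from the limit. MMP27 had 0 reads in all 18 libraries, and MMP8 had 1 read, in a C134W library. MMP20, the enamel protease, had 10 reads over the 3 C134W libraries with TGF, 1 over those of WT with TGF and 0 in the other 4 groups. MMP23A, annotated as a transcribed pseudogene, and MMP23B are near-identical copies whose reads the counting could split, and both stayed under 10.

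The TIMP family split between the lines. TIMP1 and TIMP2 were read in each of the 18 HGrC1 libraries, TIMP4 stayed under 10 everywhere, and TIMP3, the inhibitor that binds to matrix and also blocks ADAMTS proteases, had 3, 2 and 1 reads over the 3 libraries of EV, WT and C134W and 5, 1 and 2 with TGF. In KGN the authors' deposited mean of TIMP3 was 499.9. ADAMTS2, ADAMTS9, ADAMTS13 and ADAMTS16 likewise reached 10 in KGN and in no HGrC1 table, while MMP9, MMP10 and MMP25 reached it in an HGrC1 table with TGF and not in KGN. The tables of the 2 lines were normalised separately, so these are levels within a table, and the difference between lines was not tested.

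**Figure D1:**
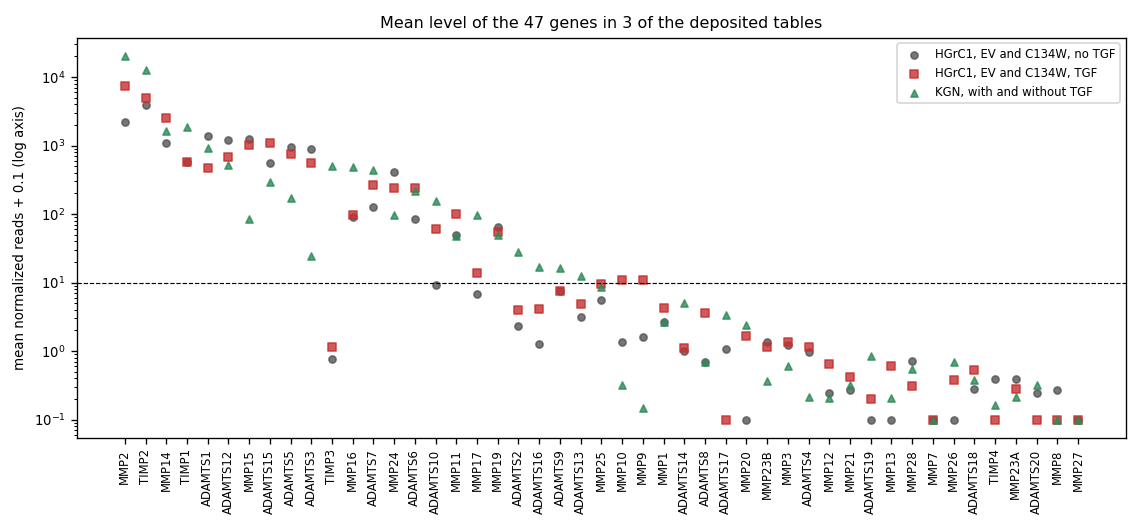
Mean normalised reads plus 0.1, on a log axis, of each of the 47 genes in 3 of the authors' deposited tables (circles: HGrC1 EV and C134W without TGF; squares: the same with TGF; triangles: KGN with and without TGF). The dashed line is a mean of 10; reads are not scaled for gene length, and TIMP3 and ADAMTS16 lie above the line in KGN and below it in HGrC1.

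C134W was first set against WT, the contrast of mutant with normal FOXL2. With TGF, 8 of the 20 genes at a mean of at least 10 were higher in C134W and 5 were lower in the authors' deposited test at an adjusted p under 0.05, and 19% and 19.3% of all 12781 genes tested were called higher and lower. All 5 MMP genes that passed were higher (MMP2, MMP11, MMP14, MMP15 and MMP17, the last let in by the mean limit only through its C134W libraries), both TIMP genes were lower, and the ADAMTS genes divided, with ADAMTS7, ADAMTS10 and ADAMTS15 higher and ADAMTS1, ADAMTS5 and ADAMTS12 lower. The median log2 fold change was 0.08 over the 20 genes and -0.00 over all genes tested. Without TGF, 6 of 16 were higher (MMP2, MMP11, MMP14, MMP15, ADAMTS3 and ADAMTS7) and 2 lower (ADAMTS1 and ADAMTS5), against 10.9% and 11.5% of all genes, with medians of 0.04 and 0.00.

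Against EV, the contrast of the mutant with no added FOXL2, 7 of 20 genes were higher with TGF and 6 lower in the authors' deposited test, beside 25.6% and 23.1% of all genes. MMP2, MMP11, MMP17, ADAMTS1, ADAMTS7, ADAMTS15 and TIMP1 were higher, and MMP14, MMP15, MMP24, ADAMTS3, ADAMTS12 and TIMP2 were lower. MMP17 was again let in by the mean limit only through its C134W libraries, so its place in the count of higher genes supports nothing. Without TGF, 7 of 16 were higher and 3 lower, beside 14.1% and 12.4% of all genes. Those higher were MMP2, ADAMTS5, ADAMTS6, ADAMTS7, ADAMTS15, TIMP1 and TIMP2, and those lower were MMP15, MMP24 and ADAMTS3. The comparisons with WT and with EV share the C134W libraries, so they are not independent of each other.

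**Figure D2:**
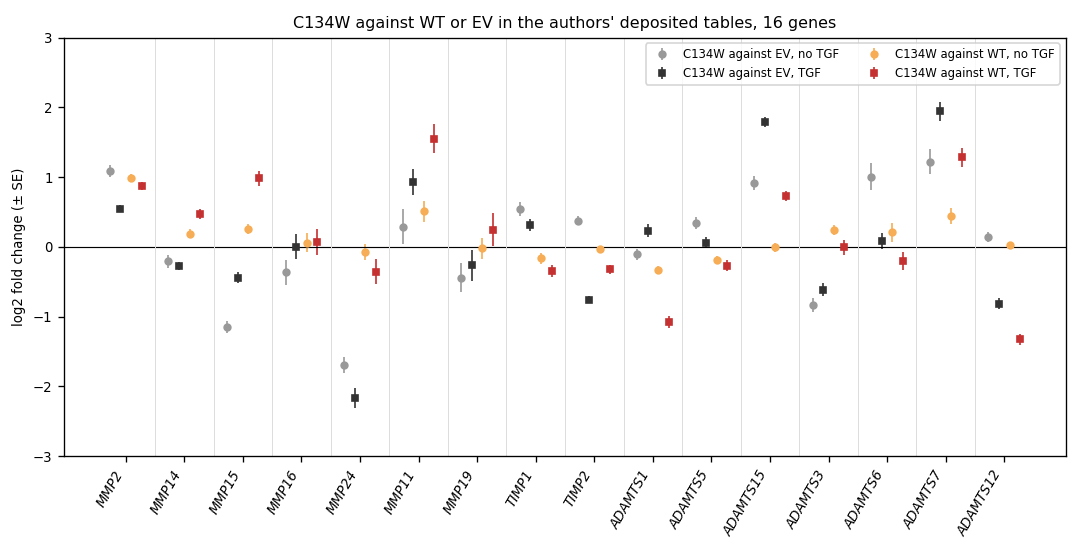
Log2 fold change of C134W against EV (grey, black) and against WT (orange, red), without TGF (circles) and with TGF (squares), from the authors' deposited tables; bars are the deposited standard errors, and the 16 genes are those at a mean of at least 10 in all 5 tables. MMP2 lies above 0 in all 4 comparisons, and MMP24 lies near -2 against EV with TGF and near 0 against WT without TGF.

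The gelatinase MMP2 (chr16:55478830-55506691, GRCh38.p14) was higher in C134W than in either other line, with and without TGF. Its normalised reads were 1219.7, 1455 and 1574 in EV, 1447, 1545 and 1576 in WT and 3043, 3062 and 3108 in C134W. The EV and WT ranges overlapped, and C134W lay above both. With TGF they were 5201, 5273 and 5285 in EV, 3783, 4169 and 4225 in WT and 7363, 7561 and 7660.2 in C134W, with no overlap between the 3 groups and WT the lowest. The authors' deposited table gave a log2 fold change against WT of 0.99 ± 0.04 without TGF (adjusted p = 2.4e-109) and 0.88 ± 0.06 with TGF (adjusted p = 1.6e-48). Against EV the values in the authors' deposited tables were 1.09 ± 0.09 (adjusted p = 6.3e-35) and 0.55 ± 0.05 (adjusted p = 6.2e-30). TGF itself raised MMP2 in all 3 lines, by 1.87 ± 0.05 in EV, 1.43 ± 0.05 in WT and 1.30 ± 0.04 in C134W on the log2 scale in limma (adjusted p = 1.1e-21, 1.6e-18 and 4e-21). The response of C134W minus that of EV was -0.57 ± 0.06 in limma (adjusted p = 5.1e-08), and minus that of WT it did not pass (adjusted p = 0.18).

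MMP14 (chr14:22836585-22847758), the membrane-type enzyme that activates proMMP2, was highest in EV. It stood at 1048, 1185 and 1288 normalised reads in EV, 822, 909 and 919 in WT and 973, 1024 and 1037 in C134W, where each EV library exceeded every C134W and WT library. With TGF the values were 2319.7, 2369 and 2556, 1258, 1435 and 1499.7 and 1915, 1958 and 1992, and the order EV, C134W, WT held without overlap. In the authors' deposited table C134W exceeded WT by 0.47 ± 0.07 with TGF (adjusted p = 1.2e-09) and by 0.19 ± 0.06 without (adjusted p = 0.011); the latter did not pass in limma on the recovered reads (adjusted p = 0.056). Against EV the authors' deposited table gave -0.27 ± 0.06 with TGF (adjusted p = 1.7e-05), and without TGF the value of -0.21 ± 0.09 did not pass (adjusted p = 0.064). TGF raised MMP14 in EV, WT and C134W by 1.01 ± 0.06, 0.68 ± 0.07 and 0.95 ± 0.06 in limma (adjusted p = 1.2e-14, 8.6e-09 and 5.7e-14).

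TIMP2 (chr17:78852977-78925387), inhibitor of MMP2 and partner of MMP14, changed with TGF in opposite directions in EV and in the FOXL2 lines. Without TGF its normalised reads were 3334, 3551 and 3659 in EV, 4510.2, 4653 and 4802 in WT and 4448, 4552 and 4676 in C134W; EV was lowest and the 2 FOXL2 lines overlapped. With TGF they were 5435, 5529 and 5637 in EV, 3675, 4155 and 4188 in WT and 3095, 3219.6 and 3315 in C134W, so EV was now highest, C134W was lowest and no groups overlapped. TGF changed TIMP2 by 0.64 ± 0.04 in EV, -0.19 ± 0.04 in WT and -0.51 ± 0.04 in C134W in limma (adjusted p = 1.9e-14, 0.00016 and 2e-12). The response of C134W minus that of EV was -1.15 ± 0.05 (adjusted p = 6.8e-16), and minus that of WT it was -0.32 ± 0.05 (adjusted p = 6.4e-05), both in limma. In the authors' deposited tables C134W against EV was 0.37 ± 0.06 without TGF (adjusted p = 1.1e-07) and -0.75 ± 0.05 with it (adjusted p = 2.2e-47). CEP295NL lies within the annotated span of TIMP2, and no source here tells how reads in such overlaps were assigned.

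The ratio of MMP2 to TIMP2 reads within a library does not depend on scaling between libraries. It ran 0.366, 0.410 and 0.430 in EV, 0.311, 0.322 and 0.349 in WT and 0.655, 0.683 and 0.684 in C134W. With TGF it was 0.923, 0.956 and 0.970, 1.00, 1.01 and 1.03 and 2.22, 2.38 and 2.44. None of the 6 groups overlapped in this ratio, and its mean was 2.35 ± 0.114 (SD, n = 3) in C134W with TGF against 1.01 ± 0.0138 in WT with TGF. The ratio of MMP14 to TIMP2 reads was likewise highest in C134W with TGF, at 0.578, 0.608 and 0.644, against 0.420, 0.436 and 0.453 in EV and 0.342, 0.343 and 0.361 in WT with TGF. These are ratios of reads not divided by gene length, so only their differences between groups can be read.

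**Figure D3:**
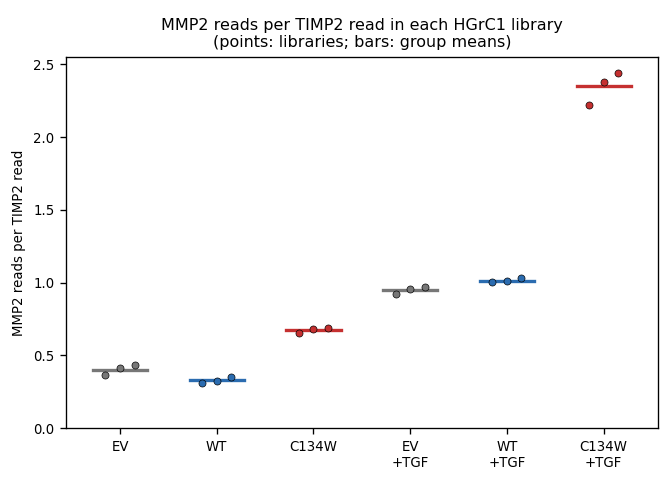
Reads of MMP2 per read of TIMP2 in each HGrC1 library (points) with the mean of each group (bars), for EV (grey), WT (blue) and C134W (red) without and with TGF. The 3 libraries of C134W with TGF lie between 2.22 and 2.44, above all other libraries.

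The other gelatinase, MMP9, was low: 9.09, 9.53 and 14.8 normalised reads in EV with TGF, 1.90, 3.18 and 4.99 in WT with TGF and 2.79, 10.4 and 10.7 in C134W with TGF, and at most 2.64 in any library without TGF. It was under the limit in 4 of the 5 tables and passed no test at a mean of at least 10.

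MMP15 and MMP24, membrane-type enzymes, were lower in both FOXL2 lines than in EV. MMP15 (chr16:58025754-58046901) stood at 1556, 1737 and 1921 normalised reads in EV, 597, 649.8 and 673 in WT and 752, 756 and 799 in C134W. With TGF it stood at 1031, 1050.3 and 1062 in EV, 317, 368 and 422 in WT and 684, 762 and 811 in C134W. EV lay above both FOXL2 lines in each condition, and C134W lay above WT. The authors' deposited table gave C134W against EV as -1.15 ± 0.09 without TGF (adjusted p = 2.7e-36) and -0.44 ± 0.08 with TGF (adjusted p = 4.2e-08). Against WT the authors' deposited values were 0.26 ± 0.07 (adjusted p = 0.0016) and 0.98 ± 0.10 (adjusted p = 4e-20). TGF lowered MMP15, with log2 changes of -0.75 ± 0.06 in EV and -0.77 ± 0.10 in WT in limma (adjusted p = 8.8e-11 and 3.5e-07), while in C134W the value was -0.01 ± 0.08 (adjusted p = 0.94). The response in C134W differed from that in WT by 0.77 ± 0.12 (adjusted p = 5.5e-05) and from that in EV by 0.74 ± 0.10 (adjusted p = 1.2e-06) in limma.

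MMP24 had the lowest fold change against EV of the 20 genes with TGF. It went from 612, 642 and 706 normalised reads in EV to 195, 209 and 211 in WT and 172, 199 and 205 in C134W, and with TGF from 314, 356 and 374 to 79.8, 102 and 104 and 66.9, 69.9 and 83.6. WT and C134W overlapped in both conditions and EV stood apart. The authors' deposited table gave C134W against EV as -1.70 ± 0.11 without TGF (adjusted p = 1.6e-49) and -2.17 ± 0.14 with TGF (adjusted p = 1.8e-53). Neither comparison with WT passed in the authors' deposited tables, at -0.07 ± 0.11 and -0.36 ± 0.18, although the comparison with TGF passed in limma at -0.42 ± 0.15 (adjusted p = 0.02). TGF lowered MMP24 in EV, WT and C134W, with log2 changes of -0.92 ± 0.08, -1.07 ± 0.13 and -1.39 ± 0.12 in limma (adjusted p = 5.1e-11, 1.6e-07 and 2.2e-10). The antisense genes MMP24OS and MMP24-AS1-EDEM2 overlap MMP24, and since strand-specific counting is not stated in the sources used here, reads of the 2 strands cannot be told apart.

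Of the remaining membrane-type enzymes, MMP16 stood at 97.6, 98.5 and 119 normalised reads in EV, 71.5, 75.1 and 75.2 in WT and 68.7, 80.7 and 86.8 in C134W and passed no deposited HGrC1 comparison. MMP17, which is held by a lipid anchor, stood at 12.7, 18.6 and 19.2 normalised reads in C134W with TGF against 3.90, 7.41 and 9.10 in EV and 2.50, 7.60 and 8.48 in WT. Those 3 C134W libraries lay above the EV and WT libraries with TGF, but not above every WT library without TGF (5.01, 11.2 and 14.1). With TGF the authors' deposited tables gave 0.78 ± 0.29 against WT (adjusted p = 0.026) and 1.07 ± 0.39 against EV (adjusted p = 0.016), at a mean near the limit. MMP17 came over that limit only through C134W with TGF (a mean of 16.8 normalised reads, against 6.80 in EV and 6.19 in WT with TGF), so its higher calls follow from the group that let it in and support nothing. MMP25, also lipid-anchored, stood at 8.07, 11.7 and 18.6 in C134W with TGF and 3.80, 13.8 and 15.0 in WT with TGF, which overlap, and 2.28, 3.18 and 5.19 in EV with TGF.

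MMP11 (chr22:23772849-23784316), a secreted enzyme that is already active when it leaves the cell, was higher in C134W with TGF than in every other group. Its normalised reads were 31.0, 38.9 and 58.9 in EV, 23.8, 28.0 and 32.6 in WT and 40.1, 49.5 and 79.7 in C134W; C134W lay above WT and overlapped EV. With TGF they were 55.2, 56.1 and 68.3, 25.8, 28.6 and 47.5 and 93.4, 118 and 130.0, and the C134W libraries lay above all others. The authors' deposited table gave C134W against WT as 1.55 ± 0.21 with TGF, or 2.93-fold (adjusted p = 2.6e-12), and 0.51 ± 0.15 without (adjusted p = 0.006). Those deposited values are shrunken toward 0, and limma on the recovered reads gave 1.89 ± 0.24 with TGF and 0.95 ± 0.27 without. Against EV with TGF the authors' deposited table gave 0.93 ± 0.19 (adjusted p = 3.4e-06). TGF raised MMP11 in C134W by 1.09 ± 0.19 in limma (adjusted p = 2e-05), and the values in EV and WT, 0.43 ± 0.23 and 0.15 ± 0.31, did not pass. The difference of the 2 deposited comparisons with WT was 1.04 ± 0.26 by a z test (adjusted p = 0.001), but in limma the same difference was 0.94 ± 0.36 (adjusted p = 0.083), so the call for MMP11 rests on the z test alone. MMP19 stood at 69.6, 71.3 and 92.3 in EV, 49.3, 57.4 and 62.7 in WT and 49.0, 51.0 and 64.8 in C134W, and passed no deposited HGrC1 comparison. TMEM198B overlaps MMP19, had means of 37.2 to 70.3 in the authors' deposited tables and was higher in C134W than in WT with TGF, at 0.85 ± 0.23 (adjusted p = 0.0011).

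TIMP1, which inhibits most secreted MMPs, was lowest in EV. It stood at 399.9, 494 and 521 normalised reads in EV, 669, 855 and 856 in WT and 691, 694 and 713 in C134W, and with TGF at 428, 444 and 468, 659, 695 and 729 and 520.3, 529 and 591. EV lay below both FOXL2 lines in each condition, and with TGF C134W lay below WT. In the authors' deposited tables C134W against EV was 0.54 ± 0.10 without TGF (adjusted p = 1.3e-06) and 0.31 ± 0.09 with TGF (adjusted p = 0.0019), and against WT with TGF it was -0.35 ± 0.09 (adjusted p = 0.00045). TGF lowered TIMP1 in C134W, with a log2 change of -0.36 ± 0.08 in limma (adjusted p = 0.00052), and the values in EV and WT, -0.09 ± 0.09 and -0.18 ± 0.08, did not pass; the differences between responses did not pass either (adjusted p = 0.1 and 0.33). TIMP1 lies within the span of SYN1, whose mean was at most 5.08 in the authors' deposited tables.

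**Figure D4:**
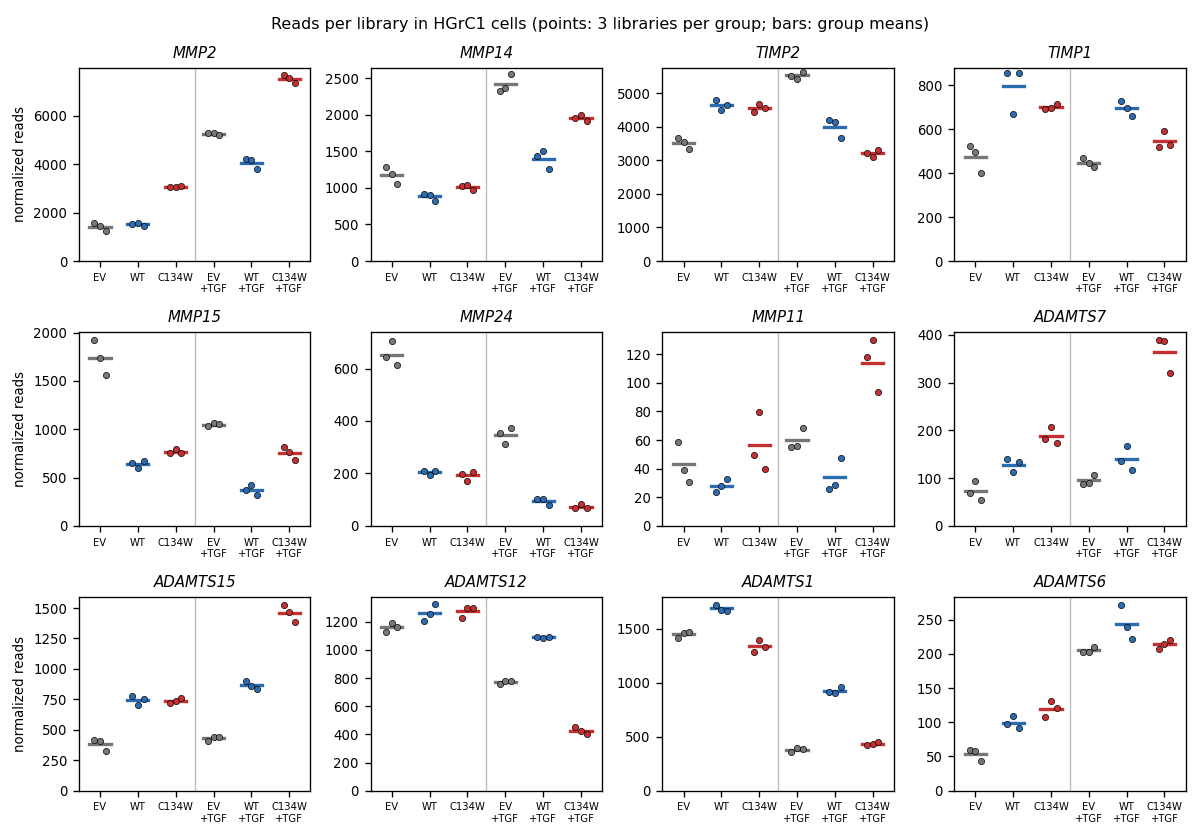
Normalised reads in each of the 18 HGrC1 libraries (points, 3 per group) with group means (bars) for 12 genes, each on its own linear axis from 0; the line divides groups without TGF from those with TGF. In C134W with TGF, MMP2, ADAMTS7, ADAMTS15 and MMP11 lie above every other group, and ADAMTS12 and, narrowly, TIMP2 lie below every other group.

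Among the ADAMTS proteases that cut proteoglycans, ADAMTS1, ADAMTS5 and ADAMTS15 were read well, and ADAMTS4, ADAMTS8, ADAMTS9 and ADAMTS20 stayed under 10 in every HGrC1 table. ADAMTS1 (chr21:26835755-26845409) stood at 1412, 1455 and 1471 normalised reads in EV, 1667, 1670.0 and 1723 in WT and 1281, 1327 and 1398 in C134W, and with TGF at 356, 385 and 392, 906, 911 and 963 and 421, 437 and 447. WT was highest in both conditions, without overlap. The authors' deposited table gave C134W against WT as -0.32 ± 0.05 without TGF (adjusted p = 4.1e-09) and -1.07 ± 0.08 with TGF (adjusted p = 2.1e-36). TGF lowered it, with log2 changes of -1.94 ± 0.06 in EV, -0.87 ± 0.05 in WT and -1.62 ± 0.05 in C134W in limma (adjusted p = 7.1e-21, 2.4e-14 and 1e-19). The fall in C134W was deeper than in WT, with a difference of -0.74 ± 0.07 (adjusted p = 1.4e-08), and shallower than in EV, with a difference of 0.32 ± 0.08 (adjusted p = 0.0027), in limma. ADAMTS5, its neighbour on chromosome 21, stood at 748, 893 and 909.8 in EV, 1189, 1233 and 1304 in WT and 1037, 1058 and 1138 in C134W, and at 626, 659.9 and 709, 804, 821 and 824 and 648, 688 and 694 with TGF, with WT again highest. In the authors' deposited tables ADAMTS5 in C134W against WT was -0.19 ± 0.06 and -0.27 ± 0.08 (adjusted p = 0.0061 and 0.0033), and TGF lowered it in all 3 lines, with log2 changes of -0.35 ± 0.07, -0.60 ± 0.07 and -0.66 ± 0.06 in EV, WT and C134W in limma (adjusted p = 0.00012, 2.2e-08 and 8.4e-10).

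ADAMTS15 (chr11:130448645-130476645) went the other way. Its normalised reads were 325, 404 and 413 in EV, 705, 753 and 775 in WT and 720.1, 734 and 762 in C134W; the 2 FOXL2 lines overlapped and lay above EV. With TGF they were 408, 440.4 and 441 in EV, 838, 861 and 904 in WT and 1383, 1471 and 1529 in C134W, with no overlap. The authors' deposited table gave C134W against WT as -0.01 ± 0.07 without TGF (adjusted p = 0.95) and 0.73 ± 0.07 with TGF (adjusted p = 1.1e-21). Against EV the authors' deposited values were 0.92 ± 0.10 (adjusted p = 8e-18) and 1.79 ± 0.08, or 3.46-fold (adjusted p = 2.8e-120). TGF changed ADAMTS15 by 0.15 ± 0.08 in EV (adjusted p = 0.14), 0.23 ± 0.07 in WT (adjusted p = 0.0095) and 1.00 ± 0.06 in C134W (adjusted p = 1e-14) in limma, and the C134W response exceeded the other two by 0.86 ± 0.10 and 0.78 ± 0.09 (adjusted p = 9.3e-08 and 1.7e-07). The rise in WT did not pass without either of 2 libraries, 1 of WT without TGF (0.19) and 1 of WT with TGF (0.19).

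ADAMTS7 and ADAMTS12, which share domains and the substrate COMP, differed in direction. ADAMTS7 (chr15:78759206-78811464) stood at 54.2, 68.6 and 94.0 normalised reads in EV, 112, 133 and 140.4 in WT and 174, 181 and 207 in C134W, an order without overlap. With TGF it stood at 88.3, 90.0 and 107, 118, 137 and 168 and 319, 386 and 389, again in that order. In the authors' deposited table C134W against WT was 0.44 ± 0.12 without TGF (adjusted p = 0.0019) and 1.28 ± 0.13 with TGF (adjusted p = 1.8e-20), and against EV the authors' deposited values were 1.22 ± 0.17 and 1.94 ± 0.13 (adjusted p = 6e-11 and 2.4e-46). TGF raised ADAMTS7 in C134W by 0.98 ± 0.11 in limma (adjusted p = 1.1e-08), and this exceeded the values in EV (0.35 ± 0.18) and WT (0.15 ± 0.15) by 0.63 ± 0.21 and 0.84 ± 0.18 (adjusted p = 0.023 and 0.002).

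ADAMTS12 (chr5:33523535-33891990) differed little between the lines without TGF, at 1127, 1159 and 1193 normalised reads in EV, 1206, 1256 and 1328 in WT and 1228, 1299.9 and 1301 in C134W. With TGF it stood at 761, 777 and 778 in EV, 1085, 1092 and 1094 in WT and 402, 423 and 452 in C134W, and C134W lay below both others. The authors' deposited table gave C134W against WT as -1.33 ± 0.08 with TGF, or 0.398-fold (adjusted p = 1.9e-57), and 0.02 ± 0.06 without (adjusted p = 0.85). TGF lowered ADAMTS12 in all 3 lines, with log2 changes of -0.59 ± 0.05 in EV, -0.20 ± 0.05 in WT and -1.56 ± 0.06 in C134W in limma (adjusted p = 2.4e-10, 0.0023 and 3.7e-19). The fall was deepest in C134W, whose response minus that of EV was -0.97 ± 0.08 and minus that of WT -1.36 ± 0.08 in limma (adjusted p = 6.5e-11 and 1.1e-13).

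ADAMTS3, which trims procollagen, was higher in EV than in the FOXL2 lines. It stood at 1052, 1158 and 1339 normalised reads in EV, 491, 560.1 and 584 in WT and 636, 639 and 669 in C134W, and at 576, 604 and 607, 358, 386 and 400.4 and 353, 368 and 429 with TGF. The authors' deposited tables gave C134W against EV as -0.84 ± 0.10 without TGF (adjusted p = 1e-16) and -0.61 ± 0.09 with TGF (adjusted p = 3.1e-10). Against WT the authors' deposited value passed without TGF, at 0.24 ± 0.08 (adjusted p = 0.0084), and did not pass with TGF, at -0.01 ± 0.11. TGF lowered ADAMTS3 in each line, with log2 changes of -0.95 ± 0.07, -0.50 ± 0.09 and -0.78 ± 0.08 in EV, WT and C134W in limma (adjusted p = 1.3e-11, 0.00013 and 9.7e-09).

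ADAMTS6 and ADAMTS10, the pair tied to fibrillin microfibrils, rose with TGF in each line. ADAMTS6 stood at 43.4, 57.8 and 59.8 normalised reads in EV, 91.5, 97.1 and 109 in WT and 108, 121 and 131 in C134W, and at 202, 203 and 209, 222, 239 and 271 and 208, 215 and 220.2 with TGF, so that EV was apart from the others without TGF and overlapped C134W with it. TGF raised it by 1.89 ± 0.14 in EV, 1.32 ± 0.11 in WT and 0.84 ± 0.10 in C134W in limma (adjusted p = 3.5e-12, 2.1e-10 and 5.6e-08). In the authors' deposited tables C134W against EV was 1.01 ± 0.19 without TGF (adjusted p = 1e-06) and 0.09 ± 0.12 with it (adjusted p = 0.6). ADAMTS10 stood at 3.52, 7.23 and 7.75 in EV, 2.65, 7.85 and 10.0 in WT and 10.3, 11.1 and 14.9 in C134W, and with TGF at 55.1, 60.4 and 69.4, 13.8, 22.8 and 27.5 and 37.9, 40.3 and 55.7. Every library with TGF lay above all those of its own line without TGF, and limma gave rises of 3.32 ± 0.37 in EV, 1.79 ± 0.42 in WT and 1.82 ± 0.30 in C134W (adjusted p = 2.3e-08, 0.0015 and 1.2e-05). The mean of ADAMTS10 was 9.34 and 9.0 in the deposited tables without TGF. It came over the limit through its libraries with TGF, so the separation and the rises follow in part from the limit.

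Over the 17 genes tested on recovered reads, limma called 5 higher and 7 lower with TGF in EV, 5 and 8 in WT, and 7 and 7 in C134W. Over all 11818 genes tested the shares called higher and lower were 26.2% and 22.2% in EV, 16.2% and 17.3% in WT, and 24% and 22.8% in C134W. MMP2, MMP14, ADAMTS6 and ADAMTS10 rose in all 3 lines, and ADAMTS1, ADAMTS3, ADAMTS5, ADAMTS12 and MMP24 fell in all 3. ADAMTS10 was among the 17 through its libraries with TGF. TIMP2 was the 1 gene of the 17 called in opposite directions between lines. The shares of all genes called in the same or in opposite directions across the 3 lines were not counted. The median response over the 17 genes was -0.09 with EV, -0.18 with WT and -0.01 with C134W, beside 0.02, -0.02 and -0.00 over all genes.

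**Figure D5:**
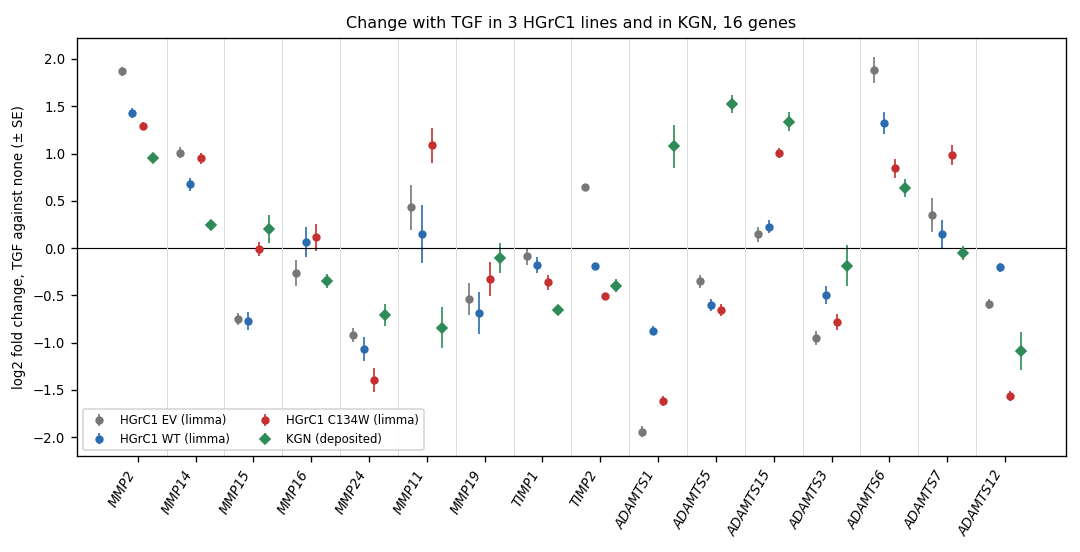
Log2 fold change with TGF against without, with standard errors, for 16 genes in HGrC1 with EV (grey), WT (blue) and C134W (red) from limma on recovered reads, and in KGN (green diamonds) from the authors' deposited table. MMP2 lies above 0 in all 4, TIMP2 is above 0 in EV and below 0 in the other 3, and ADAMTS1 and ADAMTS5 lie below 0 in the HGrC1 lines and above 0 in KGN.

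The dependence of the C134W effect on TGF was tested as the difference between the deposited comparisons with and without TGF, which share no library. Against WT, 5 of 16 genes had a positive difference and 3 a negative one at an adjusted p under 0.05 by a two-sided z test, beside 6% and 7.15% of all 12509 genes tested. The positive ones were MMP11, ADAMTS7, ADAMTS15, MMP15 and MMP14, and the negative ones were ADAMTS12, ADAMTS1 and TIMP2. With the shrinkage undone, MMP11 did not pass. Against EV, 4 of 16 were positive (ADAMTS15, ADAMTS7, MMP15 and ADAMTS1) and 5 negative (TIMP2, ADAMTS12, ADAMTS6, MMP2 and MMP24), beside 9.78% and 9.4% of 12595 genes. MMP2 against WT did not pass this z test on the deposited fold changes, at -0.12 ± 0.07 (adjusted p = 0.34).

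WT FOXL2 against EV was obtained from the 2 tables that share C134W, with a standard error that is too large for that reason. Here too the 2 fold changes were shrunken by separate amounts. With TGF, 6 of 19 genes were higher in WT and 7 lower by the z test, beside 21.8% and 17.8% of all genes; without TGF, 6 of 16 were higher and 4 lower, beside 12.2% and 10.4%. By this z test on the deposited values, MMP24 and MMP15 were lower in WT in both conditions, at -1.81 ± 0.23 and -1.42 ± 0.13 with TGF (adjusted p = 4.7e-14 and 3.6e-27) and -1.62 ± 0.16 and -1.40 ± 0.11 without (adjusted p = 2.8e-23 and 6.7e-34). ADAMTS15, ADAMTS7, ADAMTS5 and TIMP1 were higher in WT in both conditions. MMP2 did not pass the same z test without TGF, at 0.10 ± 0.10 (adjusted p = 0.53), and was lower in WT with TGF, at -0.33 ± 0.08 (adjusted p = 7.4e-05).

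The same contrasts were also fitted in limma on the recovered reads, over 17 of the genes. Against WT it called 7 higher and 7 lower in C134W with TGF (24.8% and 22.7% of all genes) and 5 and 2 without (10.7% and 10.6%). Against EV it called 6 and 7 with TGF (27% and 30.9%) and 8 and 7 without (19.2% and 18.5%). The 7 lower without TGF were MMP14, MMP15, MMP16, MMP19, MMP24, ADAMTS1 and ADAMTS3, where the deposited test called 3. WT against EV gave 7 higher and 9 lower with TGF (28.4% and 33.7%) and 7 and 6 without (22.7% and 21.9%). The TGF response of C134W minus that of WT passed for 4 genes upward (MMP14, MMP15, ADAMTS7 and ADAMTS15) and 4 downward (ADAMTS1, ADAMTS6, ADAMTS12 and TIMP2), where 6.85% of all genes passed in either direction taken singly. Minus that of EV it passed for 4 upward and 7 downward (11.8% and 14.9%).

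In KGN, TGF raised 8 of the 23 genes at a mean of at least 10 and lowered 9 in the authors' deposited test, beside 23.5% and 23.3% of all 12450 genes tested. MMP2, MMP14, ADAMTS1, ADAMTS5, ADAMTS6, ADAMTS10, ADAMTS15 and ADAMTS16 rose, and MMP11, MMP16, MMP24, TIMP1, TIMP2, TIMP3, ADAMTS9, ADAMTS12 and ADAMTS13 fell. All 3 TIMP genes with a mean of at least 10 were lower with TGF. Values per KGN library were not recovered, so group levels below are those implied by the authors' deposited mean and fold change, with no SD.

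TIMP3 changed most: from 815 normalised reads without TGF to 121 with TGF, with a log2 fold change of -2.75 ± 0.17 in the authors' deposited table (adjusted p = 6.2e-59). TIMP1 went from 2229 to 1411 and TIMP2 from 14252 to 10827, with -0.66 ± 0.04 and -0.40 ± 0.07 in the authors' deposited table (adjusted p = 7e-65 and 2.2e-07). MMP2 moved from 14334 to 27769 implied normalised reads, at 0.95 ± 0.05 in the authors' deposited table (adjusted p = 2.3e-90). MMP14 moved from 1521 to 1803, at 0.25 ± 0.04 in the authors' deposited table (adjusted p = 3.8e-08). MMP2 and MMP14 were thus higher, and TIMP1, TIMP2 and TIMP3 lower, in the treated KGN libraries. TIMP3 lies within the span of SYN3, whose mean in the authors' deposited KGN table was 0.919.

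ADAMTS genes made up most of the other changes in KGN. ADAMTS16 rose from 5.81 to 29.9 implied normalised reads, at 2.37 ± 0.28 in the authors' deposited table (adjusted p = 2.7e-16). It reached a mean of 10 only through the treated libraries, so its call follows in part from the limit. ADAMTS5 rose from 92.0 to 264 and ADAMTS15 from 174 to 441, at 1.52 ± 0.09 and 1.34 ± 0.10 in the authors' deposited table (adjusted p = 4.7e-56 and 5e-40). ADAMTS1 rose from 609 to 1283, at 1.08 ± 0.22 in the authors' deposited table (adjusted p = 8.5e-06), where TGF, in a separate experiment, lowered it in HGrC1. ADAMTS12 fell from 692 to 326, at -1.09 ± 0.20 in the authors' deposited table (adjusted p = 5.9e-07), beside -1.56 ± 0.06 in HGrC1 with C134W in limma. ADAMTS9, a proteoglycanase, and ADAMTS13, the protease of von Willebrand factor, fell by 1.06 ± 0.26 and 0.83 ± 0.28 in the authors' deposited table (adjusted p = 0.00022 and 0.0079). ADAMTS13 reached a mean of 10 only through the untreated libraries, where its implied level was 15.4 against 8.64 with TGF.

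Set side by side with HGrC1 C134W, the KGN fold changes had the same sign for MMP2, MMP14, MMP24, TIMP1, TIMP2, ADAMTS6, ADAMTS10, ADAMTS12 and ADAMTS15, which passed in both. This is not particular to C134W, since all of them but TIMP1 also passed with that sign in HGrC1 WT. MMP2, MMP14, MMP24, ADAMTS6, ADAMTS10 and ADAMTS12 did so in HGrC1 EV as well. The share of all genes with the same sign was not counted. ADAMTS1, ADAMTS5 and MMP11 passed in both with opposite signs: ADAMTS5 was 1.52 ± 0.09 in the authors' deposited KGN table and -0.66 ± 0.06 in HGrC1 C134W in limma, and MMP11 was -0.84 ± 0.22 and 1.09 ± 0.19. ADAMTS7, raised in HGrC1 C134W, was -0.05 ± 0.08 in the authors' deposited KGN table (adjusted p = 0.63). The difference between the lines was not tested for any gene, and line, experiment and test differ together here.

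Genes that act with these proteases were counted in 5 other lists. The lists were chosen with earlier results of these data known. Their counts and medians beside those of all genes are therefore descriptions only. Of 26 activators and inhibitors, 17 or 18 had a mean of at least 10, and 11 were higher and 4 lower in C134W than in EV with TGF, with a median log2 fold change of 0.69 beside 0.01 over all genes, in the authors' deposited table (25.6% and 23.1% of all genes were called higher and lower). Those named by the rule were the serine protease HTRA1 (8.65 ± 0.16), the serpins SERPINB2 (6.93 ± 0.29) and SERPINE2 (6.14 ± 0.09) and urokinase, PLAU (3.87 ± 0.06). In KGN the authors' deposited table had 10 of 17 higher and 5 lower with TGF (23.5% and 23.3% of all genes), among them SERPINE2 at 4.33 ± 0.13 and PLAT, tissue plasminogen activator, at 3.12 ± 0.28. Against WT with TGF, 8 of 17 were higher and 4 lower in the authors' deposited table (19% and 19.3% of all genes).

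Of 23 matrix substrates, 20 reached the limit in the C134W and EV table with TGF, where 3 were higher and 13 lower in C134W (25.6% and 23.1% of all genes), with a median of -0.78 in the authors' deposited table. The proteoglycan biglycan, BGN, was -2.21 ± 0.12 and the collagen chain COL5A1 was -1.46 ± 0.06 there. Against WT without TGF, 10 of 17 were higher and 1 lower in the authors' deposited table (10.9% and 11.5% of all genes), led by versican, VCAN, a substrate of ADAMTS1, ADAMTS5 and ADAMTS15, at 1.63 ± 0.06. Against WT with TGF, 7 of 18 substrates were higher and 5 lower in the authors' deposited table (19% and 19.3% of all genes). Against EV without TGF, 4 of 18 were higher and 8 lower (14.1% and 12.4%). Of 9 ADAM proteases at a mean of at least 10 in the C134W and EV table with TGF, 1 was higher and 7 lower in the authors' deposited table (25.6% and 23.1% of all genes), with ADAM12 at -1.16 ± 0.08. In KGN 2 of 8 were higher, ADAM12 (2.42 ± 0.11) and ADAM19 (1.53 ± 0.06), and 4 lower, in the authors' deposited table (23.5% and 23.3% of all genes).

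Of 12 ADAMTS-like proteins and partners, 2 were higher and 6 lower against EV with TGF in the authors' deposited table (25.6% and 23.1% of all genes). The largest changes there were LTBP1, which holds latent TGF-beta in the matrix, at 4.02 ± 0.13, ADAMTSL3 at -2.18 ± 0.10, papilin, PAPLN, at -1.93 ± 0.15 and fibrillin 2, FBN2, at 1.86 ± 0.17 in the authors' deposited table. Of 19 regulators of MMP transcription, 15 were higher and 3 lower against EV with TGF in the authors' deposited table, beside the same shares of all genes. By size these were led by the cytokine IL6 at 5.97 ± 0.22, the ETS factors ELF3 at -4.77 ± 0.23 and ETV4 at 3.08 ± 0.09, and FOS, an AP-1 subunit, at 3.01 ± 0.16 in the authors' deposited table. Against EV without TGF, 14 of 19 regulators were higher and 2 lower in the authors' deposited table (14.1% and 12.4% of all genes). Against WT, 9 were higher and 4 lower with TGF (19% and 19.3%), and 8 and 3 without (10.9% and 11.5%). In KGN 4 of 19 were higher and 7 lower in the authors' deposited table (23.5% and 23.3% of all genes).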

How the data were processed

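RNA was sequenced after a TruSeq RNA kit v2 preparation, and only the 27 RNA libraries bear on these genes; the 78 DNA samples of the series were not analysed here. Per the submitters' processing notes, Trimmomatic 0.36.0, Bowtie2, HTSeq 0.6.1 and DESeq2 were used, with build hg38; the order of steps, the annotation and the strand setting are not in the sources used here. Each deposited table holds, per gene, a signal (the mean of DESeq2-normalised counts over the libraries compared, made by the authors), a log2 fold change with its standard error from the authors' fit, a score (the deposited Wald statistic) and the authors' p-value with its Benjamini-Hochberg adjusted form.

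Because these means are sums of whole reads times 1 constant per library, whole reads were recovered for HGrC1 by an integer search over the 2 tables that share the C134W libraries, for 93.9% of 13249 genes with TGF and 93.5% without. Each table alone gave the same C134W reads in 999 of 999 and 1000 of 1000 genes, a check run on genes of low mean only. It did not cover well-read genes such as MMP2, MMP14 and TIMP2. Refitted fold changes matched the deposited ones within 1e-06 in 629 of 630 and 614 of 615. MMP2 and TIMP2 had several solutions, of which 1 each matched both deposited fold changes. Recovered libraries carry no replicate number. KGN reads were not recovered.

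The authors' deposited DESeq2 tests are the main result for each deposited contrast, at a mean of at least 10 and an adjusted p under 0.05. Differences between tables were tested by a two-sided z test on the 2 fold changes and their errors, with Benjamini-Hochberg adjustment. TGF responses were tested by limma (voom) over 18 libraries and 11818 genes; this fit was chosen after seeing the data. The z test was run on simulated differences whose noise had the same errors that the test uses. That run cannot tell whether those errors hold in the data. The limma fit was run on reads simulated at a fixed dispersion. Genes of the families were all to be named where they reached a mean of 10, and up to 4 genes per further list by size of change among those called. The members and lists were chosen with earlier results of these data known. Alternatives covered a stricter adjusted p (0.01), a stricter mean (50), recentring, undoing the shrinkage of fold changes, scaling by the robust spread of the statistic, and leaving out each library.

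Promoters and coordinates are RefSeq's (GRCh38.p14). Software was Python 3.11.15, numpy 2.4.6, pandas 2.3.3, scipy 1.17.1, sympy 1.14.0, matplotlib 3.10.9, R 4.3.3 and limma 3.58.1.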

Additional observations from a re-analysis of the deposited data

Results flagged for a closer look

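For 8 genes the C134W minus WT difference depended on TGF by the z test on the deposited fold changes: MMP11 (1.04), ADAMTS7 (0.84), ADAMTS15 (0.74), MMP15 (0.73) and MMP14 (0.28) upward, and ADAMTS12 (-1.35), ADAMTS1 (-0.75) and TIMP2 (-0.30) downward, as log2 differences. For 9 genes the C134W minus EV difference did so: ADAMTS15 (0.87), ADAMTS7 (0.72), MMP15 (0.71) and ADAMTS1 (0.34) upward, and TIMP2 (-1.13), ADAMTS12 (-0.96), ADAMTS6 (-0.92), MMP2 (-0.55) and MMP24 (-0.47) downward. ADAMTS1 had opposite signs against WT and against EV, and both of these comparisons use the same C134W libraries.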

How the results depend on the processing

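No paired analysis was possible because the recovered libraries carry no replicate number and the deposited KGN table gives no library. No named result changed direction under any setting run. Dividing the Wald or z statistic by its robust spread over all genes lowered counts most: 5 higher and 2 lower in C134W against WT with TGF, 1 and 1 without TGF, 3 and 3 against EV with TGF, 4 higher against EV without TGF, and 4 and 2 in KGN; for TGF dependence 3 positive against WT, and 2 positive and 3 negative against EV; and for WT against EV 2 positive and 1 negative with TGF and 1 positive without. In limma on recovered reads 7 were lower against EV without TGF. Leaving out 1 library at a time in limma gave, against WT without TGF, 2 to 5 higher and 1 to 2 lower; against EV without TGF, 4 to 7 lower; for TGF dependence against WT, 3 to 5 positive; and for WT against EV without TGF, 5 to 7 negative. The count of 2 higher came without the C134W library of middle depth or the deepest WT library, and that of 1 lower without the deepest C134W library. MMP11's TGF dependence against WT was lost with shrinkage undone (0.82) and in limma. At an adjusted p of 0.01 the calls for MMP17, for MMP14 against WT without TGF, for ADAMTS1 against EV with TGF, for the TGF dependence of MMP14 against WT and of MMP24 and ADAMTS1 against EV, for ADAMTS5 in WT against EV with TGF and for MMP19 with TGF in WT were lost. The causes were not tested. MMP9, MMP10, MMP17 and MMP25 had means near 10 reads, where counting error is widest relative to the level.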
